A study of Mus musculus with 7 samples.

Results

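Fatty acid oxidation and ketogenesis are described here as a set of 41 named genes in livers that lack the microRNA miR-122 and in wild-type livers. A gene was taken as measured where a probe set of the array carried its symbol and no other, whatever its level. By that rule 39 of the 41 genes were measured, of 18193 genes on the array. The other members, Acsl1 and Cyp4a10, had no probe set of their own. RNA came from frozen liver of mice on a mixed B6/129 background, all aged 2 months, 4 of them miR-122 knockout and 3 wild type. Each mouse gave 1 array, and values are given in the order WT-27, WT-103, WT-104 for wild type and KO-03, KO-90, KO-91, KO-94 for knockout. The labels name the genotype only as knockout or wild type, and give neither the design of the allele nor the cells in which it is active. They name no sex, litter, feeding state or hour of collection.

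The liver takes up fatty acids, joins them to coenzyme A, passes long chains into the mitochondrion on carnitine and shortens them by rounds of beta-oxidation. The acyl-CoA dehydrogenases hand their electrons to the electron transfer flavoprotein, which feeds the respiratory chain, and the acetyl-CoA formed is made into ketone bodies for other organs during fasting. Peroxisomes shorten very long chains, microsomal Cyp4a enzymes start oxidation from the omega end, and the nuclear receptor PPARalpha switches on many of these genes when fatty acids rise. The microRNA miR-122 is abundant in hepatocytes and lowers the messages it pairs with.

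Of the 39 genes, 1 passed the test, Etfa, the alpha subunit of the electron transfer flavoprotein, which fell by 0.73 on the log2 scale. None of the 39 rose and 38 did not pass in either direction. Over all 18193 genes, 470 rose (2.58%) and 173 fell (0.951%). The test was limma's moderated test on log2 values, and a gene passed at a Benjamini-Hochberg adjusted p under 0.05 over all genes. At an unadjusted p under 0.05, limma gave 3 members higher (7.69%) and 5 lower (12.8%) in knockout, beside 10.2% and 6.23% of all genes. The difference was negative for 25 members and positive for 14, with a median of -0.08, beside 0.01 over all genes. Every knockout array lay below every wild-type array for 5 members (12.8%, beside 6.62% of all genes), and above for 1 (2.56%, beside 9.15%). The p-values rest on the spread between these 7 animals, which limma draws towards the spread over all genes. That prior counted as 3.99 degrees of freedom, beside 5 residual ones.

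**Figure D1:**
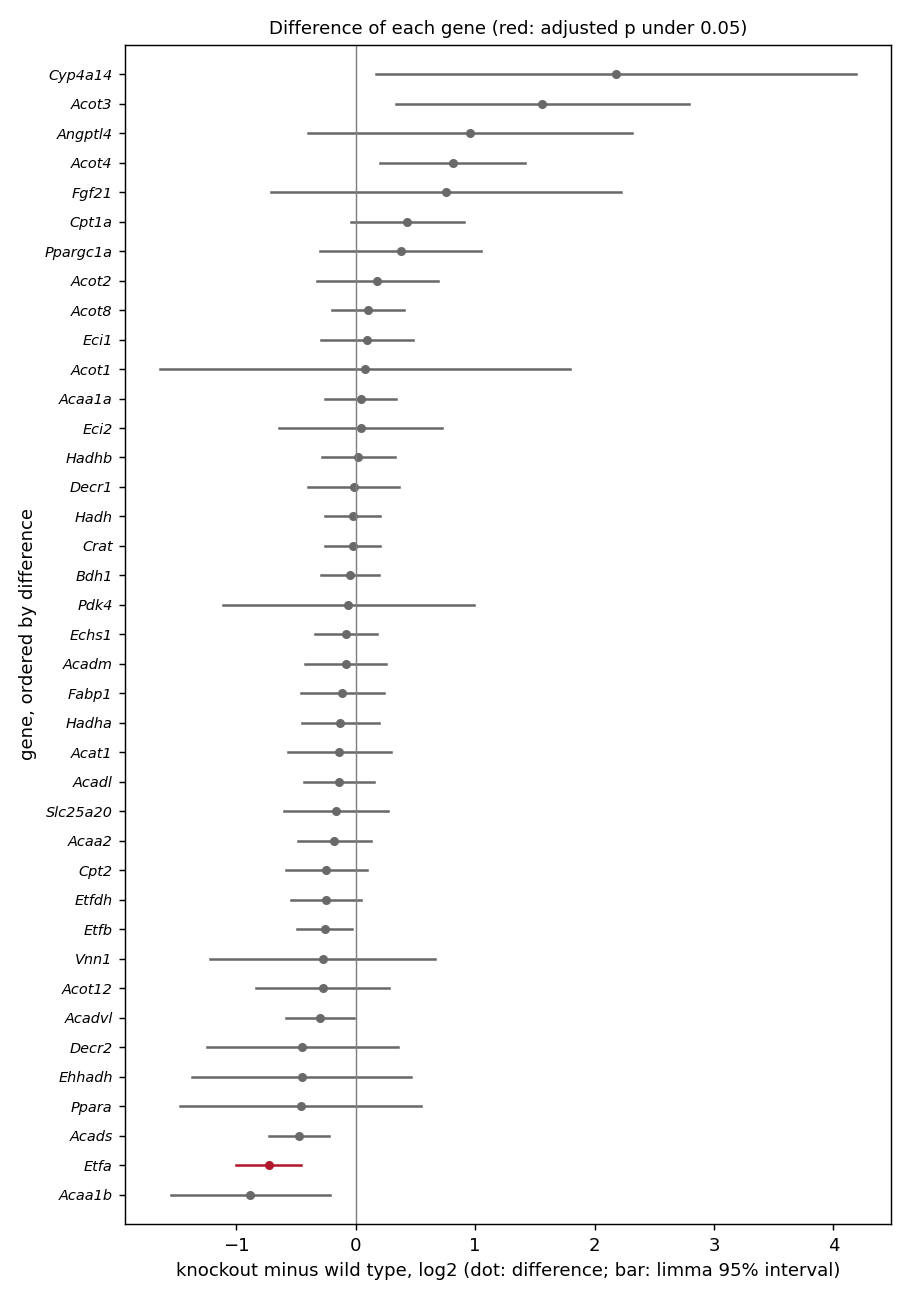
Difference between knockout and wild type for the 39 measured genes, on the log2 scale, ordered by size. Dots are differences and bars are limma's 95% intervals. Etfa, in red at -0.73, is the one that passed, and Cyp4a14 at 2.18 has the widest interval, from 0.17 to 4.19.

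How far the 39 genes could differ is set by these intervals. For 26 members the 95% interval lay within 1 log2 unit of 0, that is, within a doubling or its inverse, and for 15 it lay within 0.5. The interval included 0 for 31 members. A difference over 0.5 in size was measured for 7 members and over 1 for 2, Cyp4a14 and Acot3.

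Control probe sets gave similar values on the 7 arrays. The highest bacterial control, used here as a floor for signal, was between 4.71 and 5.23, and the array medians were between 4.65 and 4.72. The 3′ minus 5′ difference of the Gapdh controls, a sign of RNA integrity, ran from -0.20 to -0.04. All members were above the floor on every array except Ppargc1a, at or under it on 2 arrays, and Fgf21, on 1. The albumin message differed by 0.04 ± 0.10 (SE), at a wild-type mean of 14.60, near the highest value of any probe set (14.89). No probe set used here names miR-122, so the genotype labels were not checked against it.

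The electron transfer flavoprotein is a dimer of Etfa and Etfb, and Etfdh, its dehydrogenase, passes the electrons on to ubiquinone. The sequences shown are the 250 bases before the RefSeq start of these 3 genes, the group that held the gene that passed, 5′ to 3′ on the gene's strand (build GRCm38.p6). Capitals mark CCAAT on either strand, a motif picked after the matches were seen and shown as a description. The Etfa window is chr9:55512244-55512493 on the minus strand, the Etfb window chr7:43443822-43444071 on the plus strand and the Etfdh window chr3:79628768-79629017 on the minus strand.
Etfa: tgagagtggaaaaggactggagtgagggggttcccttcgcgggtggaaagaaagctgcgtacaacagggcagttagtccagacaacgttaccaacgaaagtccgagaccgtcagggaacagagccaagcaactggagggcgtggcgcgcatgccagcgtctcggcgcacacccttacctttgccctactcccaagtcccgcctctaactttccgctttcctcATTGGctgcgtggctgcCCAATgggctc
Etfb: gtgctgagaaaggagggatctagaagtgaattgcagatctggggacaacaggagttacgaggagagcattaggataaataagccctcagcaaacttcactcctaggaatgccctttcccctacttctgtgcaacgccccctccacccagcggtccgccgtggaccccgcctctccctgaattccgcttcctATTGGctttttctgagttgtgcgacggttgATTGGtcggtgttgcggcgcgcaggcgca
Etfdh: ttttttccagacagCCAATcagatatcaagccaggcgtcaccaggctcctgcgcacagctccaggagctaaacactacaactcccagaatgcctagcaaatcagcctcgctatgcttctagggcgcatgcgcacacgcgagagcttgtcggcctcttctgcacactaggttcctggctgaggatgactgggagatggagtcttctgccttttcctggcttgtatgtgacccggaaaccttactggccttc
The Etfa and Etfb windows held 2 CCAAT each, all within 59 bases of the start, and the Etfdh window held 1, at 236 bases. CCAAT stood in 33.8% of 32851 promoters of this length and in 16 of 34 promoters of members (47.1%), and 32 of the measured members had at least 1 promoter in the table.

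Etfa read 11.96, 11.82 and 11.85 on the wild-type arrays. On the knockout arrays it read 11.28, 11.05, 11.30 and 10.98. The groups lay apart, with the lowest wild-type value above the highest knockout value. The means were 11.88 ± 0.07 (SD, n = 3) and 11.15 ± 0.16 (SD, n = 4). Etfa fell by 0.73 ± 0.12 (SE), with a 95% interval from -0.998 to -0.455 and a limma adjusted p of 0.0150. On the linear scale it was 1.65-fold lower. One probe set measures it. The call did not hold when any wild-type array was left out: the adjusted p was 0.0664 without WT-27, 0.0670 without WT-103 and 0.0538 without WT-104, with differences between -0.76 and -0.69. Over all alternatives it ran from 0.00811 to 0.0670.

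Its partner Etfb read 11.79, 11.69 and 11.89 in wild type and 11.48, 11.55, 11.54 and 11.56 in knockout. Here too the groups did not overlap, but the difference of -0.26 ± 0.10 (SE) did not pass (limma adjusted p = 0.243). Etfdh read 11.42, 11.02 and 11.11 in wild type and 11.03, 10.82, 11.02 and 10.87 in knockout. Its groups overlapped, since KO-03 and KO-91 were level with WT-103, and its difference was -0.25 ± 0.13 (SE, adjusted p = 0.393). Averaged over the 3 genes and set against the wild-type mean, the wild-type arrays were at 0.11, -0.11 and 0.00 and the knockout arrays at -0.35, -0.48, -0.33 and -0.48, so no knockout array reached a wild-type one.

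**Figure D2:**
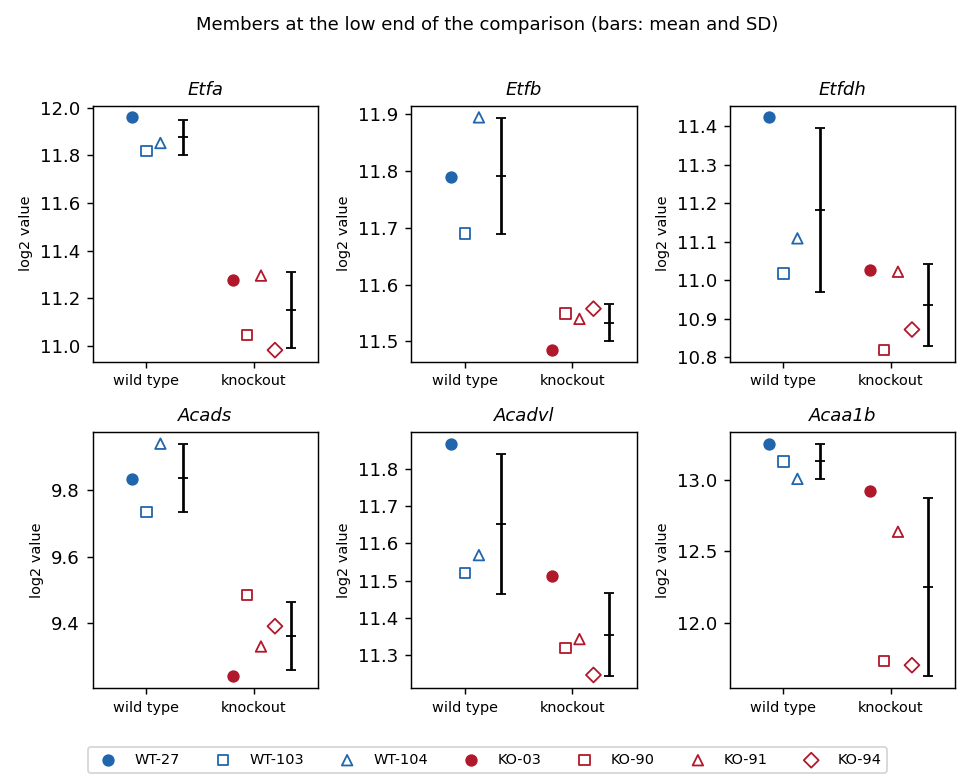
Log2 values on the 7 arrays for Etfa, Etfb, Etfdh, Acads, Acadvl and Acaa1b, wild type in blue and knockout in red. Bars give the mean and SD, and each panel has its own axis. The genes were picked from the low end of the comparison. They include all 5 of the 39 members with knockout below wild type without overlap (12.8%, beside 6.62% of all genes). The groups overlapped for Etfdh, and Etfa alone passed the test.

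Among the dehydrogenases that feed the flavoprotein, Acads, which acts on short chains, read 9.84, 9.74 and 9.94 in wild type and 9.24, 9.48, 9.33 and 9.39 in knockout. All 4 knockout values were below the lowest wild-type value. The difference was -0.48 ± 0.11 (SE) with a limma adjusted p of 0.0526, just short of passing. It passed in 6 of 21 alternative settings, with adjusted p between 0.0228 and 0.168. Acadvl, for very long chains, read 11.87, 11.52 and 11.57 against 11.51, 11.32, 11.34 and 11.25. Its groups were separated by a narrow gap between WT-103 and KO-03, and the difference was -0.30 ± 0.13 (SE, adjusted p = 0.281).

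Acadm, for medium chains, read 12.45, 11.87 and 12.20 in wild type and 12.13, 12.17, 12.15 and 11.91 in knockout. The knockout values lay within the wild-type range, and the difference was -0.08 ± 0.15 (SE), with an interval from -0.42 to 0.26. Acadl, for long chains, differed by -0.14 ± 0.13 (SE). Hadha, the subunit of the trifunctional protein that hydrates and oxidises long chains, read 10.98, 10.45 and 10.59 against 10.67, 10.58, 10.46 and 10.46. Its difference was -0.13 ± 0.14 (SE), with an interval from -0.45 to 0.19, and that of Hadhb, its thiolase subunit, was 0.02 ± 0.13 (SE). The remaining enzymes of the mitochondrial spiral ran from -0.18 for the thiolase Acaa2 to 0.09 for the isomerase Eci1, with Echs1 at -0.08, Hadh at -0.03 and Decr1 at -0.02. None of the 11 mitochondrial genes passed. Their median was -0.08 and 9 of them were negative.

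Of the 16 measured genes on a list of other acyl-CoA and branched-chain oxidation enzymes, 1 fell and none rose. Hibch, a hydrolase of valine breakdown, fell by 0.69 ± 0.14 (SE, limma adjusted p = 0.0284). That call was lost without any one of WT-27, WT-103, WT-104, KO-90 or KO-91 (adjusted p up to 0.105), and without both KO-03 and WT-104 (0.0557). It was also lost with its probe sets averaged (0.187) and without _x and _s probe sets (0.341, at a difference of -1.04). Acadsb, which oxidises short branched chains, came next at -0.75 ± 0.17 (SE, adjusted p = 0.0502).

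For entry into the mitochondrion, Cpt1a is the carnitine acyltransferase of the outer membrane that malonyl-CoA inhibits. It read 11.15, 10.17 and 10.72 in wild type and 11.25, 10.99, 10.99 and 11.22 in knockout. The knockout arrays were close together and lay around the highest wild-type array, at 0.43 ± 0.21 (SE) above the wild-type mean (adjusted p = 0.350). Without WT-103 the difference was 0.18 and without WT-27 it was 0.67. Its other probe sets differed by -0.04 and 0.20. Cpt2, the inner-membrane partner, read 10.56, 10.10 and 10.44 against 10.37, 10.09, 10.07 and 9.95, with a difference of -0.25 ± 0.15 (SE, adjusted p = 0.475). The carrier Slc25a20 differed by -0.16 ± 0.19, the fatty acid binding protein Fabp1 by -0.11 ± 0.15 and the carnitine acetyltransferase Crat by -0.03 ± 0.10 (SE). None of these 5 genes passed.

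On the list of other genes of the shuttle and of malonyl-CoA, 1 of 14 fell and none rose. Acacb, the carboxylase that makes malonyl-CoA beside the mitochondrion, read 7.82, 8.64 and 8.12 in wild type and 5.99, 6.62, 5.52 and 6.71 in knockout. It fell by 1.98 ± 0.30 (SE, limma adjusted p = 0.0112), and without WT-103 by 1.76 (adjusted p = 0.0628). With its probe sets averaged it fell by 1.02 (adjusted p = 0.0167). Slc27a5, a bile acid and fatty acid CoA ligase, was next at -0.48 ± 0.12 (SE, adjusted p = 0.0620).

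Of the ketone enzymes, Acat1, the thiolase that forms acetoacetyl-CoA, differed by -0.14 ± 0.19 (SE), and Bdh1, which reduces acetoacetate to beta-hydroxybutyrate, by -0.05 ± 0.11 (SE). Neither passed, and the interval of Bdh1 ran from -0.30 to 0.20. On the list of other ketone genes, 1 of 8 fell and none rose. Bdh2, a cytosolic dehydrogenase, read 7.62, 7.41 and 7.67 in wild type and 6.35, 6.80, 6.63 and 6.30 in knockout. It fell by 1.05 ± 0.15 (SE, limma adjusted p = 0.00803) and passed in 21 of 21 alternatives. Oxct1, which peripheral tissues use to burn ketones, differed by 0.56 ± 0.16 (SE, adjusted p = 0.110).

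The peroxisomal enzymes varied more between animals. Acaa1b, a peroxisomal thiolase, read 13.25, 13.13 and 13.01 in wild type and 12.92, 11.73, 12.64 and 11.70 in knockout. All knockout values were lower, but KO-03 and KO-91 were near wild type while KO-90 and KO-94 were more than 1 log2 unit down. The difference was -0.88 ± 0.29 (SE, limma adjusted p = 0.167), and without KO-03 it was -1.11 and passed, the adjusted p running from 0.0341 to 0.382 over the alternatives. The probe set of its near-identical copy Acaa1a differed by 0.04 ± 0.13 (SE). A pair of probe sets that the annotation assigns to both genes gave -0.69 and -0.59 (adjusted p = 0.363 and 0.305 over all probe sets), so the split of signal between the copies is uncertain.

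Ehhadh, the bifunctional peroxisomal enzyme, read 11.75, 10.95 and 10.67 in wild type and 11.66, 10.20, 10.87 and 9.94 in knockout. WT-27 and KO-03 were the highest of their groups, and the difference was -0.45 ± 0.41 (SE, adjusted p = 0.656). Decr2, a peroxisomal reductase, differed by -0.45 ± 0.35 and Eci2, an isomerase, by 0.04 ± 0.30 (SE). None of the 18 other peroxisomal genes on the list passed, and 1 had an unadjusted limma p under 0.05, which 16.4% of all genes had. The smallest p belonged to Acox2, a branched-chain acyl-CoA oxidase, at -0.40 ± 0.17, and Hsd17b4, the other bifunctional enzyme, at -0.24 ± 0.11 (SE).

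The acyl-CoA thioesterases split acyl-CoA into free acid and coenzyme A. Acot2, Acot1, Acot4 and Acot3 are neighbours in that order on chromosome 12. Acot4, a peroxisomal member, was the only gene of the 39 with every knockout array above every wild-type array (2.56%, beside 9.15% of all genes). No member was so with a second quantile normalization or with averaged probe sets. The Acot4 window before the start, chr12:84038129-84038378 on the plus strand, is shown because of that separation. Capitals mark CCAAT and AGGTCA, the hexamer that PPARalpha and other nuclear receptors read, on either strand.
Acot4: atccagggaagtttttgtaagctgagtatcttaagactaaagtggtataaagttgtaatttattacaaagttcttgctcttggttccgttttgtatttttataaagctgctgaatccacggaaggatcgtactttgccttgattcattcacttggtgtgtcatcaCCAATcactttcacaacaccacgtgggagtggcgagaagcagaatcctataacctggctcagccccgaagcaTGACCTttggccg
AGGTCA stood in 14.0% of all promoters and in 7 of the 34 member promoters (20.6%), those of Acadm, Acadvl, Acot12, Acot4, Cpt1a, Echs1 and Fabp1. The direct repeat AGGTCANAGGTCA, searched as an exact match, stood in 11 of the 32851 promoters (0.0335%) and in 0 of the 34. At so low a share the 0 tells nothing about the members, and an exact search misses imperfect repeats.

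Acot4 read 6.52, 6.00 and 5.99 in wild type and 7.10, 7.66, 6.62 and 6.55 in knockout. The gap between WT-27 and KO-94 was narrow, and the difference of 0.81 ± 0.27 (SE) did not pass (limma adjusted p = 0.165). Acot3, its peroxisomal neighbour, read 7.02, 5.82 and 5.91 against 8.35, 9.05, 7.12 and 6.72. KO-94 was below WT-27, and the difference was 1.56 ± 0.54 (SE, adjusted p = 0.184), 2.95-fold on the linear scale. KO-90 was the highest array for both genes.

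Acot1, the cytosolic neighbour, read 9.41, 7.05 and 7.34 in wild type and 9.86, 7.65, 7.90 and 6.64 in knockout. WT-27 and KO-03 stood far above the rest, the knockout arrays spanned 9.33-fold, and the difference was 0.08 ± 0.76 (SE, adjusted p = 0.975). Acot2, in the mitochondrion, differed by 0.18 ± 0.22, and a probe set shared by Acot2 and Acot1 by 0.16 ± 0.69 (SE). Sequence shared by these genes makes the values of each uncertain. Acot8, in peroxisomes, and Acot12, in the cytosol, differed by 0.10 ± 0.13 and -0.28 ± 0.24 (SE). None of the 6 thioesterases passed.

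Cyp4a14, a microsomal omega-hydroxylase, read 11.48, 7.88 and 7.38 in wild type and 12.13, 11.26, 10.78 and 10.19 in knockout. WT-27 lay among the knockout arrays while WT-103 and WT-104 were below all of them, a wild-type span of 17.1-fold. The difference was 2.18 ± 0.89 (SE, limma adjusted p = 0.261). Without WT-27 it was 3.46 and passed, the adjusted p running from 0.0131 to 0.607 over the alternatives. Without WT-104 it was 1.41, and without both KO-03 and WT-104 it was 1.07. Cyp4a10 was measured together with Cyp4a31, by a probe set that read 12.97, 11.23 and 10.74 in wild type and 12.99, 12.79, 12.78 and 11.96 in knockout. The order of the arrays was alike, with WT-27 among the knockout values, and the difference was 0.98 ± 0.48 (SE, adjusted p = 0.431 over all probe sets). Of 10 other omega-oxidation genes, 1 fell and none rose. Cyp4a12a, an arachidonate hydroxylase that is higher in males, fell by 0.97 ± 0.21 (SE, adjusted p = 0.0392), a call that held without KO-03 and was lost without any other single array (adjusted p up to 0.140). Cyp4v3, another fatty acid hydroxylase, differed by -0.48 ± 0.13 (SE, adjusted p = 0.0929).

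Ppara encodes the receptor PPARalpha. It read 10.95, 9.71 and 10.21 in wild type and 10.86, 9.67, 9.97 and 8.81 in knockout. The groups overlapped, with WT-27 and KO-03 highest, and the difference was -0.46 ± 0.45 (SE, adjusted p = 0.681). It ran from -0.81 without KO-03 to -0.12 without KO-94, and was -0.13 without WT-27. Its coactivator Ppargc1a differed by 0.38 ± 0.30 (SE). Of 27 other partners and regulators, 1 fell and none rose. Foxa2, a liver transcription factor active in fasting, fell by 1.08 ± 0.21 (SE, limma adjusted p = 0.0267), a call lost without any wild-type array, KO-90 or KO-91 (adjusted p up to 0.128). Ppargc1b, a second coactivator, was at -1.11 ± 0.28 (SE, adjusted p = 0.0684).

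Fgf21 is a liver hormone of fasting. It read 7.99, 5.45 and 4.81 in wild type and 7.09, 6.14, 7.06 and 7.06 in knockout. WT-27 was above every knockout array and the other wild-type arrays were below them all. The difference was 0.76 ± 0.65 (SE, adjusted p = 0.636), and without WT-27 it was 1.71 and passed, the adjusted p running from 0.0396 to 0.982 over the alternatives. Without WT-103 the difference was 0.44 and without WT-104 it was 0.12. Angptl4, a secreted inhibitor of lipoprotein lipase, read 10.87, 7.80 and 10.01 against 11.03, 10.20, 10.53 and 10.32. Here WT-103 was the array apart, 8.38-fold below WT-27, and the difference was 0.96 ± 0.60 (SE, adjusted p = 0.488). It was 0.079 without WT-103 and 1.61 without WT-27.

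Pdk4, the kinase that shuts off pyruvate dehydrogenase, read 6.97, 6.41 and 6.84 in wild type and 8.02, 6.88, 5.87 and 5.94 in knockout. The knockout arrays lay on both sides of wild type, with a difference of -0.06 ± 0.47 (SE, adjusted p = 0.968). Vnn1, a pantetheinase, differed by -0.28 ± 0.42 (SE). Of 21 other PPARalpha targets none passed, 1 having an unadjusted limma p under 0.05 (16.4% of all genes). Their median difference was -0.01. The smallest p were those of Retsat, at -1.06 ± 0.26 (SE, adjusted p = 0.0653), and Slc27a1, at -0.19 ± 0.12 (SE, adjusted p = 0.504).

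**Figure D3:**
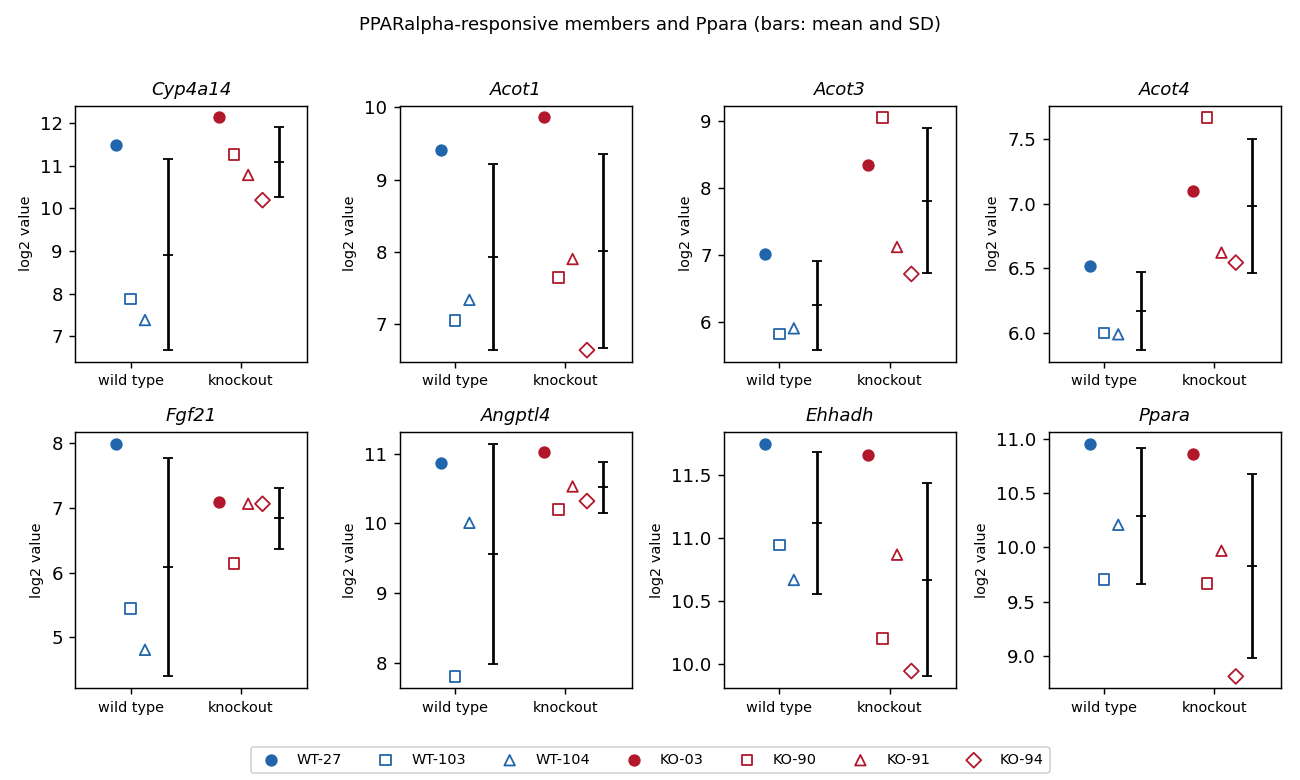
Log2 values on the 7 arrays for genes that respond to PPARalpha or to fasting, and for Ppara, with bars for mean and SD and a separate axis for each gene. WT-27 is the highest wild-type array for each gene drawn, and for all but Acot4 it lies within or above the knockout values.

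The same arrays were often at the top or bottom of their group. WT-27 was the highest wild-type array for 33 of the 39 members (84.6%), beside 26.5% of all genes, and WT-103 the lowest for 29 (74.4%, beside 32.0%). Among the knockouts KO-03 was the highest for 26 members (66.7%, beside 20.7%) and KO-94 the lowest for 21 (53.8%, beside 20.2%). Both WT-27 and KO-03 led their group for 25 members (64.1%, beside 8.72%), and all 4 of these positions held together for 9 members. The mean of the 39 genes against the wild-type mean was 0.43 for WT-27, -0.30 for WT-103 and -0.12 for WT-104. In knockout it was 0.37 for KO-03, -0.04 for KO-90, -0.0042 for KO-91 and -0.19 for KO-94. The span of the wild-type arrays was over 1 log2 unit for 9 members (23.1%), beside 2.60% of all genes, and that of the knockout arrays for 11 (28.2%, beside 7.33%). The part of feeding state or hour of collection in this was not tested.

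**Figure D4:**
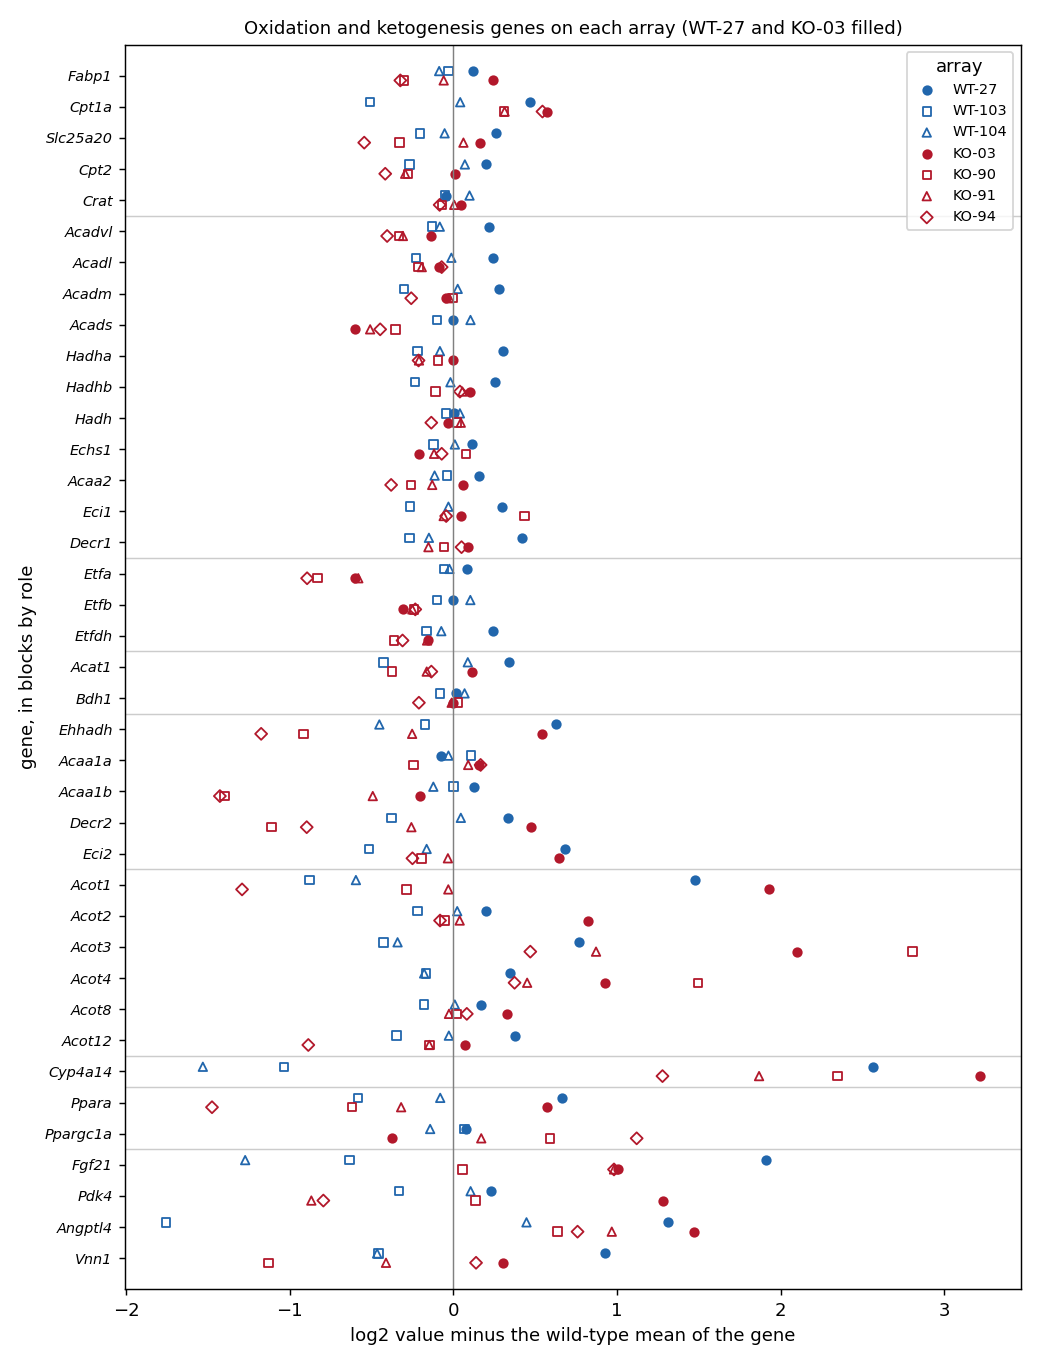
Each measured gene on the 7 arrays, as its log2 value minus the gene's wild-type mean, in blocks by role. Wild type is in blue and knockout in red, and marker shape tells the arrays of a genotype apart. WT-27 and KO-03, the filled points, are both the highest of their groups for 25 of the 39 genes, and all knockout points of Etfa and Etfb lie to the left of wild type.

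Some calls turned on single animals. Without WT-27, 2 members passed as higher, Cyp4a14 and Fgf21, 0 as lower, and 6 had every knockout array above wild type. In that fit 216 of all 18193 genes passed as higher and 68 as lower. With fewer wild-type arrays full separation is easier to reach, and its all-gene share was not computed there. Without KO-03, Etfa and Acaa1b passed as lower, beside 252 of all 18193 genes. Without WT-103 the median difference of the members was -0.22, and without WT-27 it was 0.00436.

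**Figure D5:**
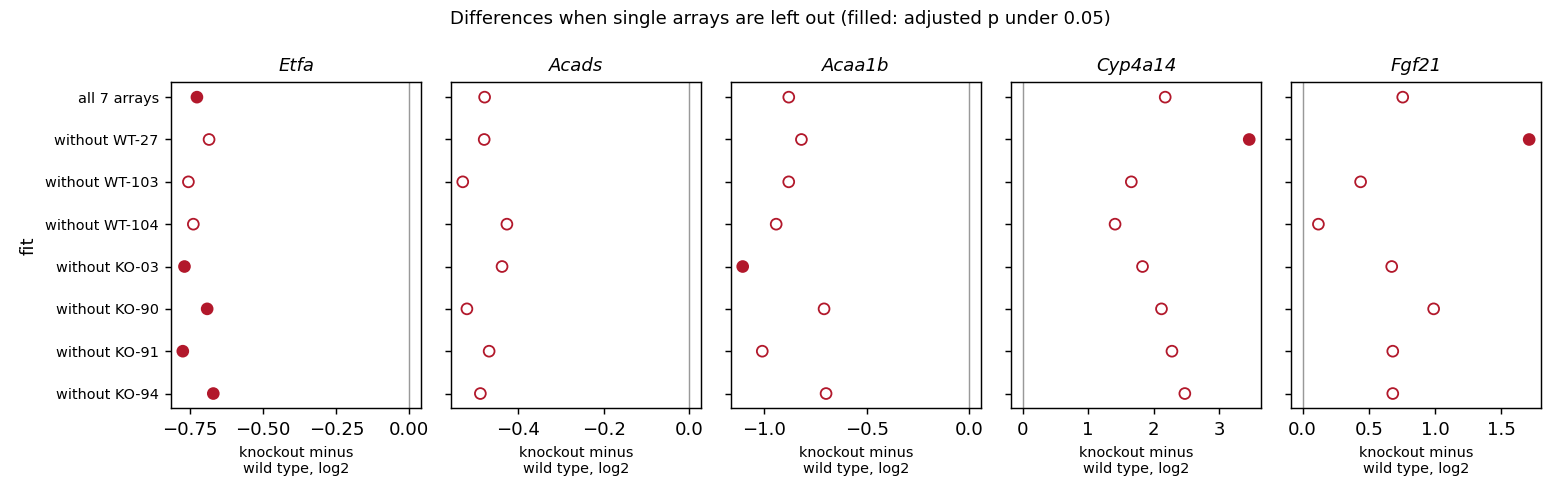
Difference between knockout and wild type, on the log2 scale, with all 7 arrays and with each array left out in turn. Filled points passed at an adjusted p under 0.05. Cyp4a14 moves from 2.18 to 3.46 without WT-27, while Etfa stays between -0.76 and -0.69 when a wild-type array is left out.

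For 21 members with several probe sets, the choice of probe set bears on the value. Of the 32 probe sets not used, 9 stayed at or below the floor throughout, 16 went the same way as the one used and 7 the opposite way. Of all 71 probe sets of the members, 1 passed when 45037 probe sets were tested together, and it was lower. A second Acot4 probe set, at or under the floor on 4 arrays, differed by 0.62, and the other Ppara probe sets by -0.17 and -0.26. Some unused probe sets were lower than the one used: Acaa2 at -0.31 and -0.37, Acat1 at -0.35 and -0.37, and Fabp1 at -0.35. Others went the opposite way to the one used, among them Hadh at 0.18 and Crat at 0.14.

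Over the 9 lists of related genes, 134 of 150 were measured, of which 1 rose (0.746%) and 5 fell (3.73%), beside 2.58% and 0.951% of all genes. The 5 that fell are Acacb, Hibch, Bdh2, Cyp4a12a and Foxa2. The gene that rose, Per1, belongs to the fasting-responsive list.

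Markers of other liver cells differed between the groups beside these results. Of the hepatocyte markers 0 of 11 passed, with 1 at an unadjusted limma p under 0.05, and the log2 of their summed level was 16.92 to 16.96 in wild type and 16.95 to 17.05 in knockout. Cholangiocyte markers rose in 4 of 7 genes (7.30 to 7.50 against 8.50 to 9.70) and stellate cell and fibroblast markers in 7 of 12 (12.01 to 12.18 against 12.73 to 13.37). Neutrophil markers rose in 2 of 7 (7.68 to 8.07 against 9.21 to 11.19), S100a8 by 3.33 and S100a9 by 3.16. The others did not pass, with differences from -0.0062 for Camp to 0.38 for Csf3r. In knockout S100a8 and S100a9 were the brightest of that list, so its summed level mostly follows them. Kupffer cell markers rose in 1 of 10 (12.30 to 12.91 against 12.69 to 13.21), Cd14 by 2.17. The other Kupffer cell markers did not pass, among them Clec4f at 0.01 and Marco at 0.89. No marker passed for sinusoidal endothelium (9 genes), lymphocytes (8) or adipocytes (6, of which 4 stayed at or below the floor throughout). Their part in the lower Etfa value was not tested. In whole liver, fewer cells of a type and less RNA per cell cannot be told apart.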

How the data were processed

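Total RNA from 7 frozen livers was biotin-labelled and read on Affymetrix mouse arrays, 1 a mouse. The deposited table holds log2 values that the authors made by robust multi-array analysis (RMA) in Partek, per the submitters' processing notes and design text. For software versions and genome build, nothing is given in the sources used here. The number of arrays limits the precision.

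Of 45101 probe sets, 64 controls were left out. Probe sets were named from the platform's annotation, where 34945 carried 1 symbol and 932 several; the latter were kept out of gene values. Each gene took its brightest probe set, by the mean of the arrays, giving 18193 genes. Knockout was compared with wild type by lmFit and eBayes in limma 3.58.1 (R 4.3.3), two-sided, with 5 residual degrees of freedom and no covariate, and p-values were adjusted by Benjamini-Hochberg over all genes. The fit was first run on simulated data with independent noise, as a check of the code. No error rate or power for these group sizes is drawn from it. RMA compresses low signals, so folds of dim genes can be understated.

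Values on every array are given for members that passed, for the 12 members with the smallest p and for Ppara, Cpt1a, Fgf21, Pdk4, Cyp4a10, Cyp4a14, Hadha and Acadm; from each related list, for genes that passed and the 2 with the smallest p, the difference is given. Values on every array for Ehhadh, Acot1, Acacb, Bdh2 and Per1 were added after they were seen. Members, lists and tests were chosen with earlier results of these data known. Promoter sequences are from RefSeq, GRCm38.p6. The 21 alternatives covered the prior, weights, normalization, filters, probe sets, the threshold and leaving out arrays.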

Additional observations from a re-analysis of the deposited data

Results flagged for a closer look

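Among 57 genes named in the text and tested over the 4 knockout arrays, 4 had 1 array far from the other knockout arrays; chance flags about 1 in 20 such groups. Acadm was low on KO-94, at 11.91 on the log2 scale, and Bdh1 was low on the same array, at 10.36. Acot2 was high on KO-03, at 8.19. Fgf21 was low on KO-90, at 6.14, while the other knockout arrays lay between 7.06 and 7.09.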

How the results depend on the processing

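Over 21 alternatives, 778 of 815 member differences kept their sign. Many of these could not turn. A changed prior or threshold, the filters on dim genes and testing every probe set on its own leave each difference as it was. Members passing as lower were 2 with array weights, a second quantile normalization, both filters on dim genes, averaged probe sets or an adjusted p under 0.1, 0 at 0.01, and 0 to 2 with 1 array left out; those passing as higher were 0 to 2. Etfa passed in 17 of 21. Related-list genes passing as higher were 2 with a trended prior or without _x and _s probe sets, 3 with either dim filter, averaged probe sets or, chosen after seeing the data, without KO-03 and WT-104, 4 with weights, 5 at 0.1 and 1 to 7 with 1 array left out. Those lower were 16 with weights, 8 with either filter, 1 at 0.01, 15 at 0.1 and 1 to 11 with 1 array left out. Members with every knockout array above wild type were 0 with quantile normalization or averaged probe sets, 2 without KO-03 and WT-104 and 1 to 6 with 1 array left out; below, 9 without that pair and 5 to 9. Fewer arrays make full separation easier to reach, and no all-gene share of it was computed for those settings. The median difference of the members ran from -0.22 to 0.00436. All-gene counts were 909 higher and 344 lower with weights, 141 and 31 at 0.01, 769 and 313 at 0.1, and 132 to 892 and 37 to 252 with 1 array left out.

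Signs turned for small differences. With averaged probe sets Crat was 0.034, Hadhb -0.18, Hadh 0.064 and Slc27a1 0.072; without _x and _s probe sets Crat was 0.14 and Hadh 0.18; with weights Hadh was 0.017; with quantile normalization Decr1 was 0.024 and Acaa1a -0.0036. Without KO-03 and WT-104, Hadhb was -0.015, Acaa1a -0.012, Eci2 -0.24, Acot1 -0.83 and Acot2 -0.021. The causes were not tested. With 1 array left out the ranges were Crat -0.052 to 0.023, Acadm -0.23 to 0.056, Hadha -0.24 to 0.022, Hadhb -0.096 to 0.15, Hadh -0.049 to 0.011, Eci1 -0.038 to 0.24, Decr1 -0.15 to 0.19, Acat1 -0.35 to 0.030, Bdh1 -0.090 to 0.0049, Eci2 -0.22 to 0.38, Acot1 -0.54 to 0.82, Acot2 -0.033 to 0.28, Pdk4 -0.51 to 0.21 and Vnn1 -0.51 to 0.19. Other members kept their sign but moved by over 1.5 times: Fabp1 -0.23 to -0.041, Slc25a20 -0.27 to -0.034, Cpt2 -0.38 to -0.15, Acadvl -0.36 to -0.19, Acadl -0.26 to -0.022, Echs1 -0.14 to -0.024, Acaa2 -0.26 to -0.10, Etfdh -0.33 to -0.13, Ehhadh -0.78 to -0.14, Decr2 -0.76 to -0.23, Acot8 0.011 to 0.19, Acot12 -0.45 to -0.074 and Ppargc1a 0.13 to 0.63. The same held for Acaa1b (-1.11 to -0.70), Acot3 (1.15 to 1.95), Acot4 (0.58 to 0.98) and Acaa1a (0.0012 to 0.14). Cpt1a, Cyp4a14, Ppara, Fgf21 and Angptl4 also moved that far, with values given above. Acaa1a and Acot3 had no value without _x and _s probe sets, because all their probe sets are of those kinds. No paired analysis was possible because the animal numbers do not recur between genotypes. The number of arrays limits what could be detected, and the members' intervals give that limit.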

Other observations

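Genes that respond to feeding and fasting outside oxidation were read on the same arrays. Of 14 fasting-responsive genes 1 rose, the clock gene Per1, at 1.05 ± 0.12 (SE, limma adjusted p = 0.00297), and it passed in 21 of 21 alternatives. Per1 read 5.98, 5.82 and 5.69 in wild type and 6.98, 6.98, 6.86 and 6.70 in knockout. Tat, a tyrosine aminotransferase induced by glucocorticoids, was next at 0.90 ± 0.21 (SE, adjusted p = 0.0533).

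Of 11 feeding-responsive lipogenic genes none passed, 10 having an unadjusted limma p under 0.05, all lower in knockout, beside 6.23% of all genes that were lower at that p. Their median difference was -0.94, and 5 of the 11 had every knockout array below wild type, beside 6.62% of all genes. The smallest p were those of Acly, which makes cytosolic acetyl-CoA, at -1.10 ± 0.26 (SE, adjusted p = 0.0579), and Pklr, liver pyruvate kinase, at -0.89 ± 0.22 (SE, adjusted p = 0.0653). The list's mean was 9.38, 9.99 and 9.33 in wild type and 8.57, 8.87, 8.39 and 8.46 in knockout, arrays in the same order as above. WT-103 was thus the highest array for this list, and the lowest wild-type array for 29 of the 39 oxidation genes.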
